A study of Homo sapiens with 3 samples.

Results

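The genes described here are 10 genes that feed or restrain the epidermal growth factor receptor (EGFR) or its relatives. They are the ligand genes AREG, EREG, HBEGF, TGFA, BTC, EPGN and NRG1, the sheddase gene ADAM17, and the inhibitor genes ERRFI1 and LRIG1. They were chosen by name, and all 10 were found by symbol among the 20332 genes of the table. The cells were HCC827, an established human lung adenocarcinoma line that carries an activating EGFR mutation. They received compound 2 at 5 μM for 24 h, compound 1 at 5 μM for 24 h, or DMSO vehicle, for which no time was given. The series title calls the compounds daphnane diterpenoids and names suppression of the DNA damage response run by ATR. Each of the 3 groups was a single RNA-seq library of 1 cell line, so no value below has a replicate error and no difference was tested.

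EGFR ligands are made as membrane-anchored precursors. A metalloprotease cuts the precursor at the cell surface, and the released growth factor binds EGFR or its relatives on the same or a neighbouring cell. ADAM17 makes this cut for amphiregulin, epiregulin, TGF-alpha and HB-EGF, and its relative ADAM10 makes it for betacellulin and EGF. The active receptor drives the RAS-ERK pathway, which raises transcription of inhibitors that act back on the receptor. ERRFI1 encodes MIG6, which binds and blocks the EGFR kinase domain, and LRIG1 encodes a membrane protein that promotes degradation of the receptor.

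AREG, EREG, EPGN and BTC lie together on chromosome 4, within 486 kb of one another, and their promoters are shown because these neighbours ranged from near 0 to among the most abundant transcripts of the cells. The promoters are RefSeq sequences on GRCh38.p14, each reaching from 250 bases before the annotated start to 50 bases after it. They lie at chr4:74444886-74445185 (+ strand), chr4:74364895-74365194 (+ strand), chr4:74308220-74308519 (+ strand) and chr4:74794474-74794773 (- strand). Capitals mark every match to a panel of 6 motifs searched on both strands. They are TATAAA, which the TATA-binding protein recognises, in AREG, EREG and EPGN, TGACGTCA (the cyclic AMP response element) in AREG, and CATTCC (the TEAD motif GGAATG on the other strand) in EREG. BTC held none.
AREG promoter: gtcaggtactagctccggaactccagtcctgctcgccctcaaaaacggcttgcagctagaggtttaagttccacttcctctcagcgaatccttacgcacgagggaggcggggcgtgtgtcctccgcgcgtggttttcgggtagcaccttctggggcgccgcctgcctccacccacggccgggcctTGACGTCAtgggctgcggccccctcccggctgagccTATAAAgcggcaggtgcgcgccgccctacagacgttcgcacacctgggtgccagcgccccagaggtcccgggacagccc
EREG promoter: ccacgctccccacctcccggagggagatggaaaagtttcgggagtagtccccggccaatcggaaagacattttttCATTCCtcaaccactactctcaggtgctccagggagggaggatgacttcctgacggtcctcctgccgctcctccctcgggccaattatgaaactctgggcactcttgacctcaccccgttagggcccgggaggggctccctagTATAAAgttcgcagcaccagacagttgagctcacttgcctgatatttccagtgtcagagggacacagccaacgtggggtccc
EPGN promoter: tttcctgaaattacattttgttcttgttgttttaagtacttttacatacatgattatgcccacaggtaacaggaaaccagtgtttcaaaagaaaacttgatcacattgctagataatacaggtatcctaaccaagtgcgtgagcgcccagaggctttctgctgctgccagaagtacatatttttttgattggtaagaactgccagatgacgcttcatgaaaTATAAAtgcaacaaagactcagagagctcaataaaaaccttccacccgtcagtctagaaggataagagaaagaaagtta
BTC promoter: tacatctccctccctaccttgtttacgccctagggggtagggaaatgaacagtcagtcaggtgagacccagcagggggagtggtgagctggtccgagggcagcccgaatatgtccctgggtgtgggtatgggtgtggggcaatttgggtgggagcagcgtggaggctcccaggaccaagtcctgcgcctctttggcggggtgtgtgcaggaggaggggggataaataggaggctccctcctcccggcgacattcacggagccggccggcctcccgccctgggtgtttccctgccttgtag

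The TATAAA match began 29 bases before the annotated start in AREG, 32 bases before it in EREG and 29 bases before it in EPGN. TATAAA was present in 11.5% of all 35116 promoters of the same length, and in none of the other 6 matched genes of the group. The cyclic AMP response element, which CREB and ATF proteins bind, began 65 bases before the AREG start and was present in 1.85% of all promoters. The other motifs searched were AP-1 (TGANTCA, 7.71% of all promoters), the antioxidant response element (TGACNNNGC, 13.3%) and the ATF4 element (TGATGNAA, 3.62%). GGAATG was in 14.0%. AP-1 and the antioxidant response element had matches among these genes in LRIG1 only, where a match to each overlapped, and the ATF4 element had none. The AP-1 matches and the overlapping match lay in an LRIG1 window inside the gene, at chr3:66405718-66406017. The shares count promoter windows, and 7 of the 9 matched genes had 1 window, while LRIG1 and TGFA had more. GGAATG was also matched in ADAM17. A match describes the letters in this window and is not evidence of binding. Promoters were matched for 9 of the 10 genes, and NRG1 is named only.

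Most of the group was higher after either compound. With compound 2 and with compound 1, 5 of the 8 genes that could be compared, EREG, HBEGF, NRG1, ADAM17 and ERRFI1, were at least 2-fold higher than with DMSO, and none was 2-fold lower. AREG, the most abundant ligand gene in the DMSO library, was higher by less than 2-fold after either compound, and TGFA and BTC lay nearest to their DMSO levels. EPGN and LRIG1 were close to 0 in every library. These ratios are log2 ratios of TPM + 1, where TPM is a gene's share of the length-corrected signal of a library, scaled to a sum of 1000000. They were computed for the 11600 genes whose mean over all 3 libraries reached 1 TPM. Over all those genes 12.6% were at least 2-fold higher after compound 2 and 14.7% after compound 1, and 6.56% and 8.09% were at least 2-fold lower. The median log2 ratio of the 8 genes was 1.60 after compound 2, beside 0.09 for all genes. After compound 1 it was 1.54, beside 0.11 for all genes. With the length and GC trend described below subtracted, the medians of the 8 genes fell to 0.96 and 1.14. Both comparisons use the same DMSO library.

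**Figure D1:**
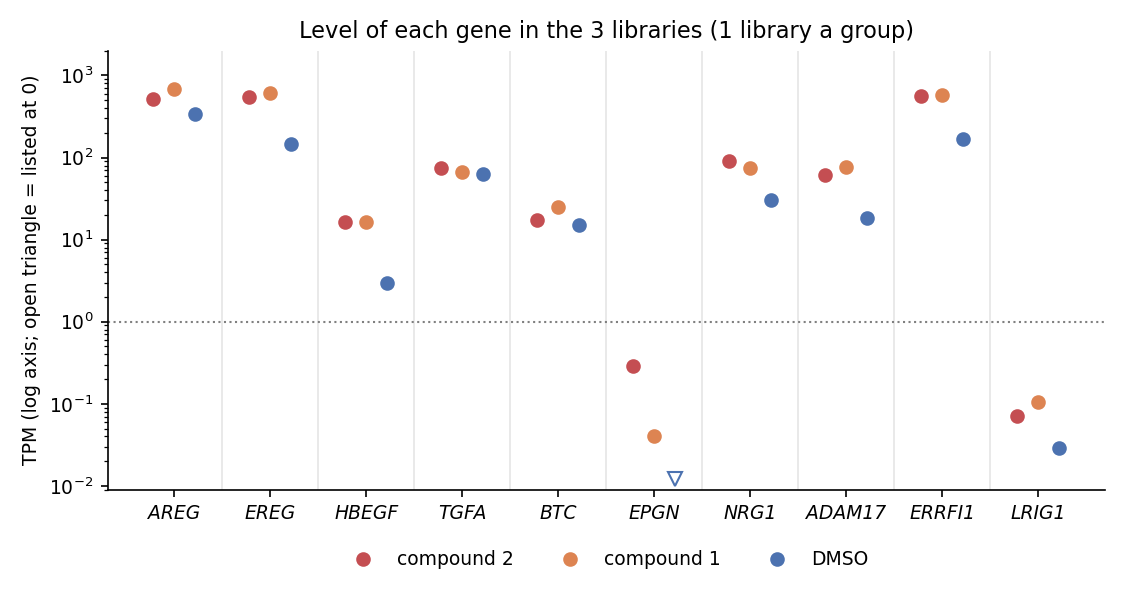
Level of each of the 10 genes in TPM (log axis) in the compound 2, compound 1 and DMSO libraries, 1 point per library, with a dotted line at 1 TPM and an open triangle for a gene listed at 0. EREG, HBEGF, NRG1, ADAM17 and ERRFI1 have both compound points well above the DMSO point, while EPGN and LRIG1 lie below 1 TPM throughout.

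Among the ligands of EGFR itself, EREG differed most in absolute level. EREG encodes epiregulin, a ligand of EGFR and ERBB4 (ENSG00000124882, chromosome 4, 74365143 to 74388751, GRCh38). It was at 550 TPM after compound 2 and 620 TPM after compound 1, against 146 TPM with DMSO. The log2 ratios to DMSO were 1.90 and 2.07. EREG ranked 264th among all genes after compound 2 and 220th after compound 1, against 1104th with DMSO.

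AREG encodes amphiregulin, a lower-affinity ligand of EGFR, and lies 80.0 kb from EREG (ENSG00000109321, chromosome 4, 74445134 to 74455009). It was at 511 TPM after compound 2, 677 TPM after compound 1 and 341 TPM with DMSO, which gave log2 ratios of 0.58 and 0.99. The ratio after compound 1 lay just under the 2-fold line. The EREG level divided by the AREG level was 1.08 after compound 2 and 0.915 after compound 1, against 0.429 with DMSO. AREG was thus above EREG with DMSO and after compound 1, and EREG was above AREG after compound 2. Such a quotient within a library does not depend on how libraries are scaled to each other, but it does carry the length and GC trend described below. With that trend subtracted, EREG had log2 ratios of 1.21 and 1.33 and AREG 0.74 and 1.17, so the gap between the genes was much narrower.

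HBEGF encodes heparin-binding EGF-like growth factor, which binds EGFR and ERBB4 and also serves as the diphtheria toxin receptor (ENSG00000113070, chromosome 5, 140332843 to 140346631). HBEGF was at 16.3 TPM after compound 2 and 16.2 TPM after compound 1, against 2.99 TPM with DMSO. Its log2 ratios of 2.12 and 2.11 were the largest of the 8 genes with a pseudocount of 1 TPM, although its level stayed far below those of AREG and EREG. That rank was lost with a pseudocount of 5 TPM, where HBEGF had 1.41 and 1.41, EREG 1.87 and 2.04, ERRFI1 1.75 and 1.78, and ADAM17 1.49 and 1.79. The plain ratio of TPM, with no pseudocount, was 5.45 after compound 2 and 5.43 after compound 1.

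TGFA encodes TGF-alpha, a high-affinity EGFR ligand (ENSG00000163235, chromosome 2, 70447280 to 70554193). TGFA was at 73.7 TPM after compound 2, 66.6 TPM after compound 1 and 63.2 TPM with DMSO, with log2 ratios of 0.22 and 0.07. The direction after compound 1 turned under the other scalings of the libraries, to -0.03 with upper-quartile or median-of-ratios scaling and to -0.14 with the length and GC trend described below subtracted. BTC, which encodes betacellulin, a ligand of EGFR and ERBB4 (ENSG00000174808, chromosome 4, 74744759 to 74794686), was at 17.4 TPM, 25.0 TPM and 14.9 TPM in the same order, with log2 ratios of 0.21 and 0.71. Neither gene was 2-fold higher after either compound.

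EPGN encodes epigen, a low-affinity EGFR ligand (ENSG00000182585, chromosome 4, 74308473 to 74315307). EPGN was at 0.292 TPM after compound 2, 0.0400 TPM after compound 1 and listed at 0 with DMSO. These values are near the bottom of what the table holds: among genes with a transcript within 20% of its length, 12.4% of the non-zero values in the compound 2 library were no higher, and 0.0400 was the lowest value in the compound 1 library. No ratio was formed. Its neighbours EREG and AREG, with the same TATAAA letters at nearly the same distance, ranked between 201st and 279th of all genes after either compound.

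NRG1 encodes neuregulin 1, which binds ERBB3 and ERBB4 rather than EGFR (ENSG00000157168, chromosome 8, 31639386 to 32767959). It was at 89.9 TPM after compound 2 and 75.4 TPM after compound 1, against 30.5 TPM with DMSO, with log2 ratios of 1.53 and 1.28. ERBB3, its receptor, was at 23.2 TPM after compound 2, 37.7 TPM after compound 1 and 26.1 TPM with DMSO, and ERBB4 was at or near 0 in every library. ERBB3 was within 2-fold of its DMSO level after both compounds, with log2 ratios of -0.16 and 0.51.

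Summed over all 11 ERBB ligand genes, ligand transcript stood at 1259 TPM after compound 2 and 1481 TPM after compound 1, against 600 TPM with DMSO. The sum was 2.10 times the DMSO sum after compound 2 and 2.47 times after compound 1. EREG made up 43.7% of it after compound 2 and 41.9% after compound 1, against 24.4% with DMSO. The AREG share was 40.6% and 45.7%, against 56.9%, and the TGFA share 5.86% and 4.50%, against 10.5%. NRG1 made up 7.14%, 5.09% and 5.09% in the compound 2, compound 1 and DMSO libraries. The sum and the shares are as deposited and carry the length and GC trend described below. That trend was 0.69 and 0.75 at EREG for compound 2 and compound 1, and -0.16 and -0.18 at AREG. With the trend subtracted, EREG had log2 ratios of 1.21 and 1.33 and AREG 0.74 and 1.17. The sum and the shares were not recomputed without it. The other 4 ligand genes, EGF, NRG2, NRG3 and NRG4, did not reach 1 TPM in any library, and the highest of their values was 0.331 TPM for EGF after compound 1.

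**Figure D2:**
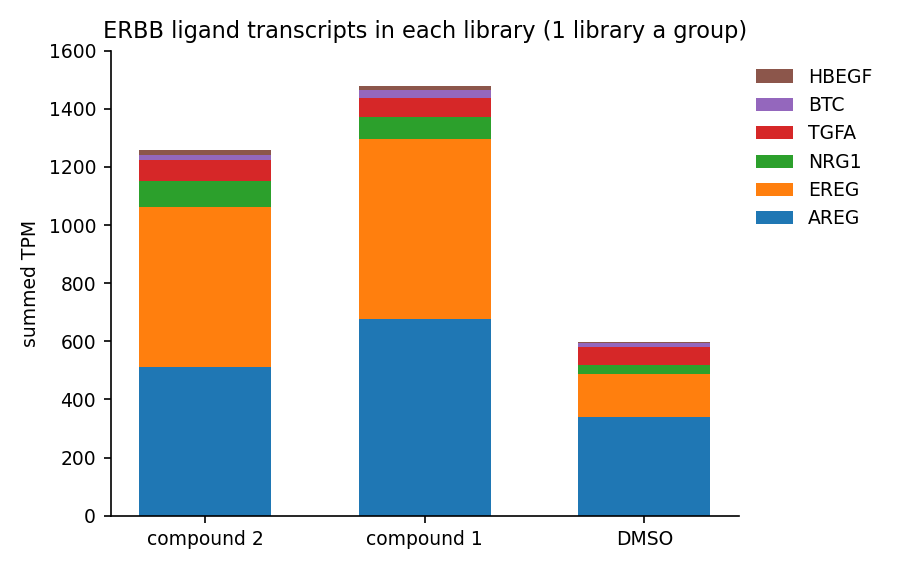
Summed TPM of ERBB ligand genes in the compound 2, compound 1 and DMSO libraries, stacked by gene (EPGN, EGF, NRG2, NRG3 and NRG4 are too low to be drawn). The bars reach 1259, 1481 and 600 TPM, and most of the gain over DMSO is EREG and AREG. The levels carry the length and GC trend described in the text.

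The sheddase gene was also higher. ADAM17 (ENSG00000151694, chromosome 2, 9488486 to 9556732) was at 60.7 TPM after compound 2 and 75.9 TPM after compound 1, against 18.4 TPM with DMSO. The log2 ratios were 1.67 and 1.98. ADAM10, on the pathway list of other sheddases, was at 129 TPM and 130 TPM, against 37.5 TPM, with log2 ratios of 1.75 and 1.77. The ADAM17 level divided by the ADAM10 level was 0.471 after compound 2, 0.582 after compound 1 and 0.491 with DMSO. In the annotation 1323 of the 10750 exon bases of ADAM17 also lie in exons of IAH1 on the opposite strand, and whether the counting used strand was not given. IAH1 was lower with the compounds, at 37.4 TPM after compound 2 and 36.9 TPM after compound 1, against 55.4 TPM with DMSO.

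The 2 inhibitor genes stood at opposite ends of the range. ERRFI1 (ENSG00000116285, chromosome 1, 8004404 to 8026308) was at 568 TPM after compound 2 and 581 TPM after compound 1, against 166 TPM with DMSO, with log2 ratios of 1.77 and 1.80. It was about as abundant as EREG in each library. EGFR, the receptor it blocks, was at 1685 TPM and 1579 TPM, against 680 TPM. The ERRFI1 level divided by the EGFR level was 0.337 after compound 2 and 0.368 after compound 1, against 0.244 with DMSO. LRIG1 (ENSG00000144749, chromosome 3, 66378797 to 66501263) was at 0.0720 TPM after compound 2, 0.104 TPM after compound 1 and 0.0290 TPM with DMSO. Of the non-zero genes of like transcript length, 4.35%, 6.45% and 1.51% were no higher in the compound 2, compound 1 and DMSO libraries, so these values are read as near 0 and no ratio was formed. LRIG1 shares 907 exon bases with SLC25A26 on the opposite strand.

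**Figure D3:**
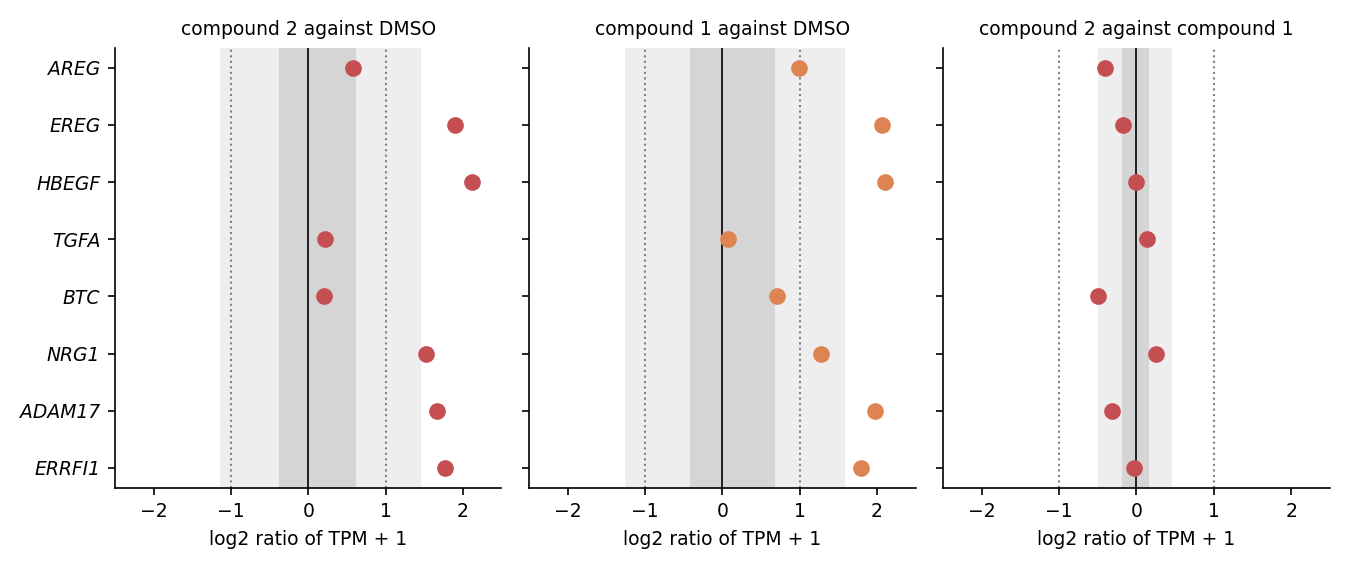
Log2 ratio of TPM + 1 for the 8 genes whose mean reached 1 TPM, 1 panel per comparison, over the range of all 11600 genes (light band, percentiles 5 to 95; dark band, percentiles 25 to 75) with dotted lines at 2-fold. EREG, HBEGF, ADAM17 and ERRFI1 lie beyond percentile 95 against DMSO after either compound, and no gene passes 2-fold between the compounds.

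Compound 2 and compound 1 were given at the same dose and time, and the levels of the group stood close together. None of the 8 genes was 2-fold apart, and of all 11600 genes 0.293% passed 2-fold upward and 0.552% downward (compound 2 over compound 1). BTC had the log2 ratio farthest from 0, -0.50 (17.4 TPM after compound 2 and 25.0 TPM after compound 1), followed by AREG at -0.41 and ADAM17 at -0.32. NRG1 was at 0.25. These 4 lay outside percentiles 25 to 75 of all genes, which were -0.17 and 0.15. By definition that range leaves out as many genes as it holds, so 4 of the 8 is no result about the group. BTC also lay below percentile 5, which was -0.48. EREG was at -0.17, TGFA at 0.14, ERRFI1 at -0.03 and HBEGF at 0.00. With 1 library each, no interval can be put on these differences, and they do not show that the compounds act alike.

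Across the whole table ratios to DMSO differed with transcript length and GC content. The median log2 ratio in the 2886 genes with the longest transcripts was 0.44 after compound 2 and 0.48 after compound 1, against -0.19 and -0.18 in the 2886 with the shortest. In the 2886 genes of lowest GC content it was 0.54 and 0.61, against -0.23 and -0.25 in the 2886 of highest. The trend was taken as the median log2 ratio of genes alike in transcript length and, after that, in GC content. It stood at 0.77 at ADAM17 for compound 2 and 0.88 for compound 1, at 0.69 and 0.75 at EREG, and at 0.50 and 0.63 at NRG1. It was -0.27 and -0.23 at HBEGF, -0.16 and -0.18 at AREG, and 0.16 and 0.25 at ERRFI1. With it subtracted, ADAM17 was at 0.90 and 1.10, and NRG1 at 1.02 and 0.65. HBEGF then stood at 2.39 and 2.34, and ERRFI1 at 1.61 and 1.55. The other quotients between genes within a library carry the trend too, as do the ligand sum and shares. The 2-fold call was thus lost for ADAM17 after compound 2 and for NRG1 after compound 1, and gained for AREG after compound 1, while EREG, HBEGF and ERRFI1 held it after both. The source of the trend was not tested.

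Of the 4 ERBB receptor genes 3 could be compared, and EGFR alone was 2-fold higher after each compound, with none 2-fold lower. Of all genes, 12.6% were higher and 6.56% lower after compound 2, and 14.7% and 8.09% after compound 1. Counts among 3 genes are too few to be a result about the list. EGFR (ENSG00000146648, chromosome 7, 55019021 to 55211628) had log2 ratios of 1.31 after compound 2 and 1.21 after compound 1, which fell below 2-fold, to 0.72 and 0.60, with the trend subtracted. ERBB2, the receptor partner with no ligand of its own, was at 27.7 TPM after compound 2 and 31.6 TPM after compound 1, against 54.1 TPM with DMSO, with log2 ratios of -0.94 and -0.76. The EGFR level divided by the ERBB2 level was 60.9 after compound 2 and 50.0 after compound 1, against 12.6 with DMSO.

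Of the 10 other sheddases and ADAM17 partners, 7 could be compared, and ADAM10 alone was 2-fold higher after each compound, with none lower (median 0.22 after compound 2 and 0.21 after compound 1). Such a count is near the shares of all genes that were 2-fold higher, 12.6% and 14.7%, and is no result about the list. ADAM10 fell below 2-fold with the trend subtracted, at 0.73 and 0.72. RHBDF2, which encodes iRhom2, a carrier of ADAM17 to the cell surface, was at 51.9 TPM after compound 2 and 37.0 TPM after compound 1, against 30.4 TPM with DMSO (log2 ratios 0.75 and 0.27). ADAM15 had log2 ratios of -0.60 and -0.84, and ADAM9 0.43 and 0.49. TIMP3, an inhibitor of ADAM17, did not exceed 0.0700 TPM in any library.

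Of 17 other restraints on the receptor and on RAS, 6 were 2-fold higher and 1 lower after compound 2 (median 0.68), and 8 were higher and none lower after compound 1 (median 0.71). Of all genes, 12.6% were higher and 6.56% lower after compound 2, and 14.7% and 8.09% after compound 1, so the 1 lower gene is near the share of all genes. PTPN12, a tyrosine phosphatase that acts on EGFR signalling, was at 236 TPM after compound 2 and 246 TPM after compound 1, against 56.1 TPM with DMSO (log2 ratios 2.05 and 2.11). SH3KBP1, which encodes a CBL-binding adaptor of receptor uptake, had log2 ratios of 1.80 and 1.81. The Sprouty genes, feedback inhibitors of RAS-ERK signalling, were divided: SPRY4 had 1.86 and 1.98, SPRY2 1.30 and 1.33, and SPRY1 -1.10 and -0.83. CBL, the ubiquitin ligase of EGFR, had 1.39 and 1.41, and SOCS4 1.02 and 1.13. With the trend subtracted 4 of the 17, PTPN12, SH3KBP1, SPRY4 and SPRY2, stayed 2-fold higher after each compound. CBL was then at 0.73 and 0.75 and SOCS4 at 0.12 and 0.14, and the medians of the list were 0.21 and 0.34. Of all 11542 genes with a trend value, 791 were then higher after compound 2 and 973 after compound 1. Of the 17, 1 was then lower after compound 2, beside 864 of all genes.

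Of 15 adaptors and genes of the RAS-ERK core, 3 were 2-fold higher after compound 2 (median 0.48) and 4 after compound 1 (median 0.44). None was lower. Of all genes, 12.6% were higher and 6.56% lower after compound 2, and 14.7% and 8.09% after compound 1. SOS1, the exchange factor that loads RAS, had log2 ratios of 1.41 and 1.41, the phosphatase gene PTPN11 1.33 and 1.35, and BRAF 0.80 and 1.02. None of the 15 was 2-fold higher with the trend subtracted, and PLCG1 was then 2-fold lower after compound 1, at -1.10. Of all 11542 genes with a trend value, 1040 were then lower after compound 1, so 1 lower gene is no result about the list. Of 12 transcripts that ERK signalling is known to raise, 6 were 2-fold higher after compound 2 (median 0.93) and 6 after compound 1 (median 0.97). None was lower, beside the same shares of all genes. This list, like the others, was chosen with earlier results of these data known, so the comparison with all genes is not independent of them. DUSP5, an ERK phosphatase, was at 182 TPM after compound 2 and 238 TPM after compound 1, against 26.6 TPM with DMSO (log2 ratios 2.73 and 3.11). The early transcription factor gene EGR1 had 2.13 and 1.98, PHLDA1 1.63 and 1.89, the ERK phosphatase gene DUSP6 1.19 and 1.39, and the cyclin D1 gene CCND1 1.29 and 1.06. With the trend subtracted, 6 were 2-fold higher after compound 2 and 7 after compound 1, beside 791 and 973 of all 11542 genes with a trend value, and CCND1 fell below 2-fold after compound 1, at 0.99. ETV4 had log2 ratios of -0.88 and -0.68.

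**Figure D4:**
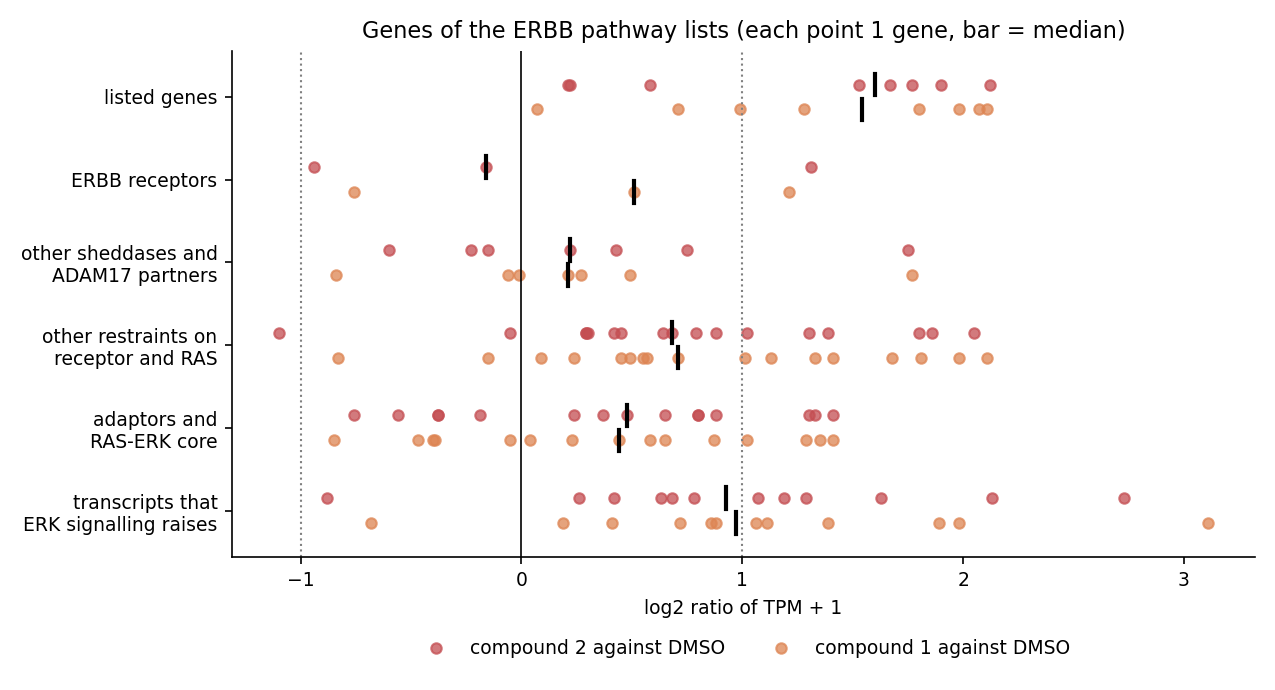
Log2 ratio of TPM + 1 to DMSO for the 8 listed genes and for each list of other ERBB pathway genes, 1 point per gene for compound 2 (upper row) and compound 1 (lower row), with the median as a black bar and dotted lines at 2-fold. The medians drawn are 1.60 and 1.54 for the listed genes, 0.93 and 0.97 for ERK-raised transcripts, and lie at 0.71 or below for the other lists. They carry the length and GC trend described in the text. With it subtracted, the medians are 0.96 and 1.14 for the listed genes and 1.00 and 1.03 for ERK-raised transcripts.

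Around the chromosome 4 ligand genes, 10 other protein-coding genes lie within 500 kb, and 6 of them reached a mean of 1 TPM. Their log2 ratios ran from -1.38 to 2.68 after compound 2 and from -1.82 to 1.25 after compound 1. CXCL3, a neutrophil chemokine gene, had log2 ratios of 2.68 after compound 2 and 1.20 after compound 1, and CXCL5 had 1.22 and -0.24. CXCL1 had -0.42 and -1.82, and PARM1, beyond BTC, had -1.38 and -1.37. CXCL1 and CXCL3 are close in sequence, so the split of their reads is uncertain. Between the compounds CXCL1, CXCL3 and CXCL5 stood at 1.41, 1.48 and 1.46 (compound 2 over compound 1), while AREG, EREG and BTC stood at -0.41, -0.17 and -0.50.

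**Figure D5:**
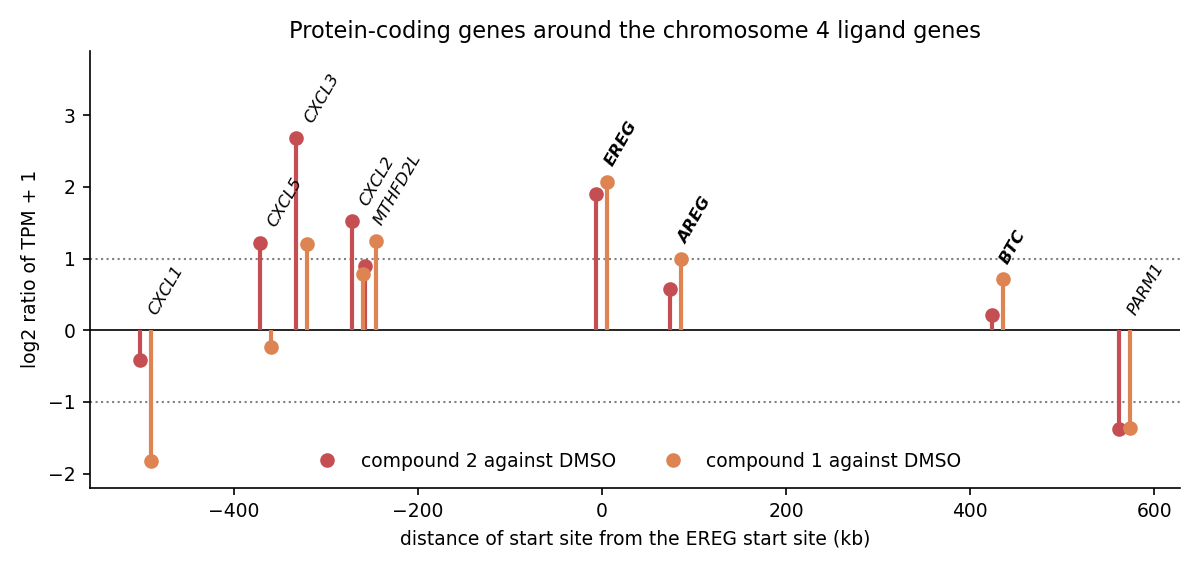
Log2 ratio of TPM + 1 to DMSO (compound 2 left, compound 1 right of each pair) for protein-coding genes whose mean reached 1 TPM around the chromosome 4 ligands (bold), by distance of the start site from that of EREG in kb. EREG has 1.90 and 2.07, between neighbours of either sign such as CXCL3 and PARM1.

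The genes most like HBEGF, which had the largest ratios with a pseudocount of 1 TPM but not of 5 TPM, were sought among 8107 genes whose mean reached 10 TPM. Likeness was the straight-line distance in the plane of the log2 ratios of both compounds to DMSO, which rests on 3 libraries. Near it lay TAB3 (2.12 and 2.11, distance 0.007) and the pro-death gene BIK (2.12 and 2.10, distance 0.011). With DMSO, HBEGF was at 2.99 TPM, TAB3 at 5.70 TPM and BIK at 56.0 TPM. The pseudocount of 1 TPM thus lowers the ratio of HBEGF most and that of BIK least. The nearest genes were not sought with another pseudocount, so this likeness holds for that setting only.

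The label of the cells was checked against markers. The 7 epithelial markers lay between 180 and 5735 TPM over the libraries, and NKX2-1, NAPSA and SFTA2 of the lung adenocarcinoma list were above 5 TPM, while SFTPB was at 0.186 TPM with DMSO and 0 with the compounds. The summed epithelial markers were at 7413 TPM after compound 2 and 7900 TPM after compound 1, against 15516 TPM with DMSO, and the lung markers at 147 TPM and 158 TPM, against 451 TPM. The difference in the epithelial sum lay mainly in KRT8 (log2 ratios -2.05 and -1.75) and KRT18 (-1.35 and -1.18). KRT19 (-1.03 and -0.78) and KRT7 (-0.05 and -0.50) were also below their DMSO level. The remaining epithelial markers stood above it. EPCAM had log2 ratios of 0.19 and 0.35, CDH1 0.34 and 0.58, and CLDN4 0.56 and 0.85, so the list did not move as one. In bulk RNA, fewer cells of a type and less RNA per cell cannot be told apart, and the part of this shift in the results above was not tested. The summed fibroblast, leukocyte and endothelial markers did not exceed 3.35 TPM in any library, and COL1A2, DCN, LUM, CDH5 and KDR were at 0 in all 3.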

How the data were processed

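RNA from HCC827 cells was sequenced as 1 library each for compound 2, compound 1 and DMSO. Extraction used Trizol and library construction an Illumina TruSeq kit, per the labels' protocols. Bowtie 0.12.2 and the builds GRCh38.p12 and mm8 are listed, per the submitters' processing notes, with no role; how genes were counted, and whether by strand, is not given in the sources used here. In the deposited table the authors gave 1 value per gene and library under headers that name FPKM. Each deposited column sums to 1000000, so the values were used as TPM, and since TPM keeps no read depth, the depth is unknown and no counting interval was computed. The number of genes above 0 ran from 14154 to 14473.

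Log2 ratios of TPM + 1 were computed with Python 3.11.15, numpy 2.4.6 and pandas 2.3.3 for genes whose mean reached 1 TPM, and 2-fold was the threshold for a call. There is 1 library a group, so there is no test. The ratio code was tested on simulated data with known folds. Coordinates, lengths and GC contents came from GENCODE 29 on GRCh38, which held 20113 of the 20332 gene identifiers, and promoters from RefSeq on GRCh38.p14. The longest transcript stood for a gene. The length and GC trend used 20 bins of each.

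The design assumed FPKM; no step changed with the unit. The genes, lists and settings were chosen with earlier results of these data known. Every listed gene is named. Of each pathway list the text names EGFR, up to 4 genes with the largest mean absolute log2 ratio to DMSO, and others 2-fold in both comparisons; SPRY1, ETV4, TIMP3, PLCG1 and the remaining receptors were named after their values were seen. No more than 4 neighbours on chromosome 4 are described. Motifs were chosen after the data were seen. Some genes that this rule names are not reported here.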

Additional observations from a re-analysis of the deposited data

How the results depend on the processing

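Under 7 alternative settings (a pseudocount of 0.1 or 5 TPM, no filter or a mean of at least 5 TPM, upper-quartile or median-of-ratios scaling, and the length and GC trend subtracted), the number of the 8 compared genes at least 2-fold higher was 4 or 5 after compound 2 and 5 after compound 1, and none was 2-fold lower. Of the log2 ratios of these genes and EGFR under the alternatives, 184 stayed on their side of 2-fold and 5 did not, all 5 with the trend subtracted. The 184 is not a measure of robustness. A change of filter cannot alter the ratio of a single gene. The count also holds the ratios between the compounds, which lay between -0.52 and 0.31 under every setting. The log2 ratio of HBEGF fell to 1.41 after either compound with a pseudocount of 5. On the other pathway lists 54 genes could be compared. Of these, 17 were 2-fold higher and 1 lower after compound 2, and 20 higher and 0 lower after compound 1. Of all 11600 genes, 12.6% were higher and 6.56% lower after compound 2, and 14.7% and 8.09% after compound 1. With the trend subtracted 10 of the 54 were higher and 1 lower after compound 2, and 11 higher and 1 lower after compound 1. Of all 11542 genes with a trend value, 791 were then higher and 864 lower after compound 2, and 973 and 1040 after compound 1. After compound 2 the lower count among the 54 was 2 with upper-quartile or median-of-ratios scaling and 0 with a pseudocount of 5. The causes were not tested. The median of all genes after compound 1 was 0.11 as deposited and 0.01 with median-of-ratios scaling, and the share of 2-fold genes that were higher was 64.5% as deposited, 56.0% with upper-quartile or median-of-ratios scaling and 48.3% with the trend subtracted. After compound 2 these shares were 65.8%, 56.5% with upper-quartile scaling and 47.8%. Over all genes, 1467 were higher and 761 lower after compound 2, against 804 and 431 with a pseudocount of 5. No paired analysis was possible because each group has 1 library. Depth could not be read from TPM, so values of EPGN and LRIG1 carry no limit of detection.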
